A study of Mus musculus with 48 samples.

Results

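The genes described here encode enzymes, complex subunits and recruiters that place methyl groups on lysine 4 or lysine 9 of histone H3. They are Ash2l, Wdr5, Rbbp5 and Dpy30 on the H3K4 side, and Setdb1, Ehmt1, Ehmt2, Suv39h2, Trim28 and Zfp57 on the H3K9 side. They were chosen by name, with earlier results of these data known, and these 10 are all of the members, among 24264 transcripts in the count table. Counts of members called are therefore descriptions of this list. RNA was read with STRT, which tags only the 5′ end of each transcript, in 48 libraries of 20 conditions from mouse cells reprogrammed with the MKOS or the OKMS cassette. Each cassette carries Myc, Klf4, Oct4 and Sox2 on 1 RNA under doxycycline control, in the order that its letters give. Klf4 is of the long form in MKOS, and in OKMS of a short form that lacks N-terminal residues, so that order and Klf4 form cannot be told apart in these libraries. In other experiments the study put the long form into OKMS. Surface markers and a Nanog-GFP reporter then changed much as with MKOS, and the study names the Klf4 form a dominant factor. The study asked how the routes to pluripotency differ between the cassettes. A level is given as CPM, reads per 1000000 reads on all transcripts of its library, and a difference is a fitted log2 change with its standard error (SE).

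The TNG ESCs carry a GFP reporter in 1 allele of Nanog, and the TNG MKOS and TNG OKMS ESCs carry in addition the named cassette, with its transactivator under the CAG promoter, inside the Sp3 gene. The MKOS and OKMS MEFs came from chimeric mid-gestation embryos made with these ESCs, so that such preparations also hold host cells without a cassette, and for reprogramming they were mixed with wild-type MEFs. The sorted populations were collected on day 10 of culture with doxycycline, vitamin C and LIF, although the growth notes give 10 or 15 days. All were CD44 low. 2NG- cells were ICAM1 low and Nanog-GFP negative, 3NG- cells ICAM1 high and Nanog-GFP negative, and 3NG+ cells ICAM1 high and Nanog-GFP positive. E-CAD+ cells, which display E-cadherin, were taken at all of these gates from both cassettes, and E-CAD- cells were taken at 2NG- and 3NG- from OKMS cultures. There were 3 libraries for each of these 8 populations and 2 for each of the remaining 12 conditions. Among the latter were MEFs that were wild type (WT) or carried MKOS or OKMS, ESCs with a cassette (TNG MKOS, TNG OKMS) or without one (TNG and E14), and established iPSCs of each cassette, grown either off doxycycline (-dox) or under 2i conditions. D6 was taken to be the iPSC line D6s4B5, for which the study describes a single MKOS transposon. Nothing states that replicates came from separate cultures, so p-values measure only the spread between these libraries.

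Methylation of H3K4 marks active promoters. It is laid down by the SET1 and MLL enzymes, which work well only when bound to a shared core of WDR5, RBBP5, ASH2L and DPY30. Methylation of H3K9 marks silent chromatin. SUV39H enzymes act at heterochromatin, EHMT1 (GLP) and EHMT2 (G9a) act together in euchromatin, and SETDB1 is brought to endogenous retroviruses and imprinted loci by TRIM28 (KAP1), which zinc finger proteins such as ZFP57 tether to DNA. In pluripotent cells WDR5 has been linked to self-renewal, and H3K9 methylation is known as a barrier to reprogramming.

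The stretches of 250 bases before the transcription start are shown for a core subunit and for the pair of recruiters. The data below compare the levels of these genes between cell populations. They are from RefSeq (GRCm38.p6), all on the + strand, and lie at chr2:27514897-27515146 for Wdr5, chr7:13023902-13024151 for Trim28 and chr17:37000913-37001162 for Zfp57. Capitals mark matches on either strand to the GC box GGGCGG, the CCAAT box, the E-box CACGTG or the octamer ATGCAAAT, which do not overlap here.
Wdr5: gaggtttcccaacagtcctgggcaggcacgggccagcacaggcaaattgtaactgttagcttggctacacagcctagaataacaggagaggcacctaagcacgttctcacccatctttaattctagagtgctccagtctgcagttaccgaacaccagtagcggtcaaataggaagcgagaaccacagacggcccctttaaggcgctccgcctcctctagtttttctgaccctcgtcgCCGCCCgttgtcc
Trim28: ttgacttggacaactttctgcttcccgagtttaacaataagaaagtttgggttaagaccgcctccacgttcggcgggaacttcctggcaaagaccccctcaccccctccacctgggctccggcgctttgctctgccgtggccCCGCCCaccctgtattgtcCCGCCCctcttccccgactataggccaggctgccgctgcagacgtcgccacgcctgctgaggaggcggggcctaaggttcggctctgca
Zfp57: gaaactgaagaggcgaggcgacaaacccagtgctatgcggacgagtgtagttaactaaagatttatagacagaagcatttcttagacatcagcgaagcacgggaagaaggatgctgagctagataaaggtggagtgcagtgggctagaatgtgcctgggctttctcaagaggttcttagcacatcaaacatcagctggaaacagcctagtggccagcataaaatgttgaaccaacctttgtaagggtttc
GGGCGG occurred once before Wdr5, 2 times before Trim28 and not before Zfp57, and 32.7% of the 32851 promoter entries held it. None of the other motifs occurred in these stretches, and 33.8% of all entries held CCAAT, 6.02% CACGTG and 1.60% ATGCAAAT. The stretch before Trim28 held 17 CG dinucleotides, that before Wdr5 12 and that before Zfp57 6, where the median entry held 6. Entries were found for 9 of the 10 genes, all but Ash2l. Zfp57 had 3 entries, of which that at the start of the gene is shown. The others held 3 and 7 CG dinucleotides, and that with 7 held 1 CCAAT.

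Between 1429717 and 14174725 reads fell on transcripts in a library, so that 3 reads correspond to a level of 0.212 to 2.10 CPM, a floor that covers counting error only. All 10 genes were read in every library and passed the filter on low counts, with at least 82 reads of Ash2l and 445 of Dpy30 but as few as 3 of Suv39h2. Reads with a unique position made up 75.6% of the Setdb1 reads, 89.3% of those of Rbbp5 and at least 98.1% of those of the other genes, so that Setdb1 and Rbbp5 are less certain. The labelled cell types were checked with marker lists. Fibroblast markers (10 genes) summed to 3170 to 5602 CPM in the MEFs and to 5.58 to 31.0 CPM in iPSCs and ESCs. Pluripotency markers (8 genes, among them Nanog, Esrrb and Zfp42) summed to 2.04 to 11.5 CPM in MEFs and to at least 10599 CPM in iPSCs and ESCs. Replicate 3 of OKMS E-CAD+ 2NG- and of OKMS E-CAD+ 3NG- stood apart in the latter list, with 2979 and 5120 CPM against 720 to 908 and 1510 to 2186 CPM in the other replicates. For Ash2l and Zfp57, and for other calls that were lost without them, values without these libraries are given beside the results.

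**Figure D1:**
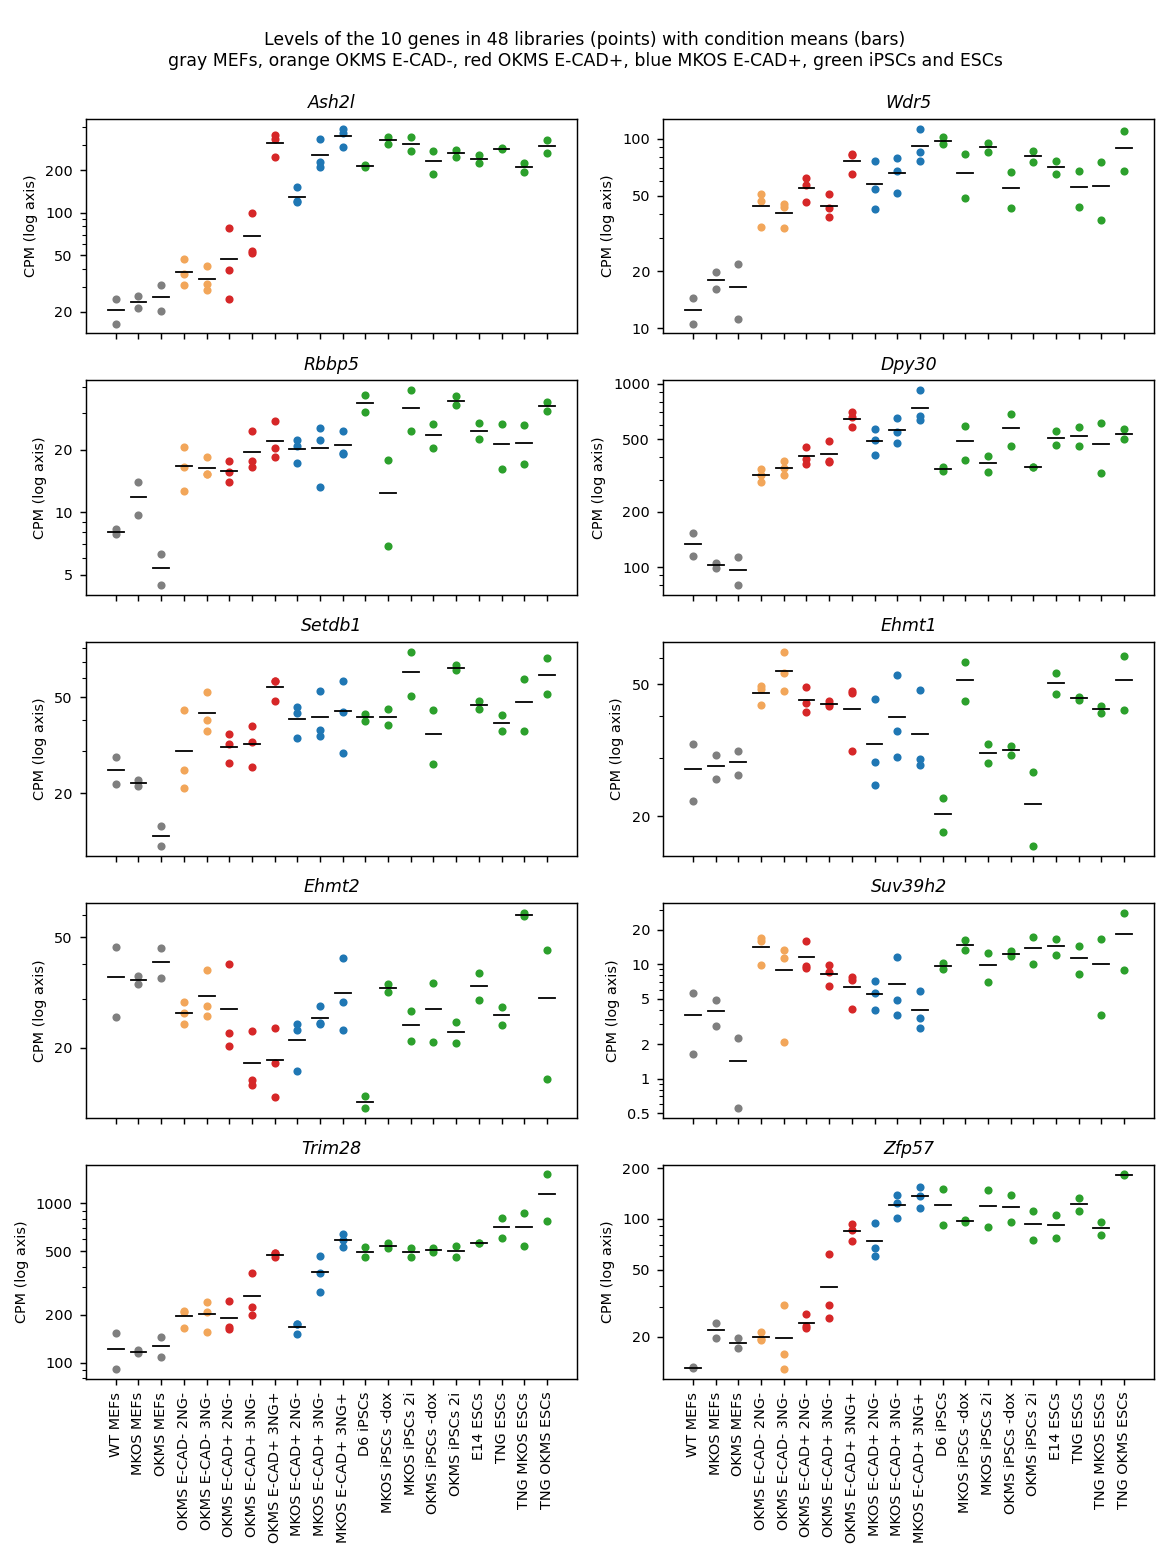
Level of each of the 10 genes in CPM (vertical log axes) in the 48 libraries (points) of the 20 conditions (horizontal axis), with the mean of each condition as a bar. Ash2l and Zfp57 lay low in MEFs and in OKMS Nanog-GFP- cells and high in MKOS cells, iPSCs and ESCs, whereas Ehmt1 spanned the narrowest range of condition means.

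The comparison of TNG MKOS and TNG OKMS ESCs with MKOS and OKMS MEFs sets the ends of the routes. Of the 10 genes 9 were higher in ESCs and none was lower by edgeR's quasi-likelihood test with Benjamini-Hochberg adjustment at an FDR of at most 0.05, while 26% of the 15630 genes tested were higher. The median log2 change was 2.15 over the members and 0 over all genes tested. Every member except Ehmt2 was called. Where libraries are said not to overlap, here or below, the share of all genes that do the same was not counted.

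Within the H3K4 core, Ash2l (chr8:25816000-25847694), whose product is needed for full activity of the enzymes, spanned the widest range of all members. Its levels were 226 and 195 CPM in TNG MKOS ESCs, 265 and 328 CPM in TNG OKMS ESCs, and 21.1, 25.9, 20.2 and 30.7 CPM in the MKOS and OKMS MEFs. That is a log2 difference of 3.35 (SE 0.27, FDR = 2.30e-13), or 10.2-fold. Dpy30 (chr17:74299474-74323944), the smallest core subunit, lay between 325 and 613 CPM in these ESCs and between 79.8 and 113 CPM in the MEFs, a log2 difference of 2.33 (SE 0.21, FDR = 4.58e-12). Wdr5 (chr2:27515147-27536535), a WD40 protein that holds the core together, lay between 37.3 and 110 CPM in the ESCs and between 11.1 and 21.8 CPM in the MEFs, and Rbbp5 (chr1:132477348-132505665), another WD40 protein, between 17.0 and 33.9 CPM and between 4.47 and 13.96 CPM. Their log2 differences were 1.98 (SE 0.23) and 1.70 (SE 0.28). The ranges of the core genes thus did not overlap between the ESCs and the MEFs of this comparison. The test used the same libraries, so that this is no separate support. The share over all genes was not counted.

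Among the H3K9 enzymes the genes differed. Setdb1 (chr3:95323525-95357202) was higher in ESCs by 1.60 on the log2 scale (SE 0.23, FDR = 1.54e-07), with 36.2 to 72.8 CPM against 12.02 to 22.6 CPM. Suv39h2 (chr2:3455815-3474986), the paralog of Suv39h1, was higher by 2.36 (SE 0.51, FDR = 0.000153), but its levels of 3.62 to 28.0 CPM and 0.557 to 4.91 CPM overlapped and were close to the floor in MEFs. Ehmt1 (chr2:24790769-24919643) was higher by 0.65 (SE 0.22, FDR = 0.0145), a call that was lost when any of 4 single libraries was left out (replicate 1 of TNG MKOS or TNG OKMS ESCs, replicate 2 of MKOS or OKMS MEFs), with log2 differences down to 0.52 (FDR = 0.0915). Ehmt2 (chr17:34898463-34914073), the partner of Ehmt1, differed by 0.11 (SE 0.25, FDR = 0.779), and its levels of 59.5, 61.2, 45.1 and 15.4 CPM in ESCs spread around the 34.1 to 45.8 CPM of the MEFs. The recruiters were higher: Trim28 (chr7:13024152-13031032) by 2.81 (SE 0.20, FDR = 5.61e-15), with 544 to 1518 CPM against 109 to 145 CPM, and Zfp57 (chr17:37001163-37010729), a guardian of imprints, by 2.63 (SE 0.26, FDR = 3.64e-11), with 80.5 to 183 CPM against 17.1 to 24.1 CPM. In the wider pathway, described by 47 other genes of which 46 were tested, 22 were higher in ESCs and 3 were lower, with a median log2 difference of 0.76, while 25% of all genes tested were lower. Those with the smallest p were Uhrf1 (2.17), a reader of H3K9 methylation, Mphosph8 (2.17), a subunit of the HUSH silencing complex, the HP1 gene Cbx1 (2.57) and the H3K4 demethylase Kdm5b (1.98). The lower ones were Suv39h1 (-1.37), the H3K4 coactivator Ncoa6 (-1.18) and the demethylase partner Rcor1 (-1.95). Suv39h1 and Suv39h2 were thus called in opposite directions.

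The MEFs and the E-CAD+ 2NG- cells were compared to ask which members differ between the start and the first sorted stage of each route. In MKOS, 5 of the 10 genes were higher in 2NG- cells and none was lower, against 15% of all genes tested called higher, and the median log2 change was 0.79. In OKMS, 7 were higher and none was lower, against 15.7%, and the median was 1.19. MKOS and OKMS MEFs themselves were not called different for any member by edgeR, with 3 members at an unadjusted p below 0.05 (Rbbp5, Setdb1 and Suv39h2), while 0.102% of all genes were called. No DESeq2 test of that comparison was run. Cell type markers moved with these steps. In MKOS, fibroblast markers summed to 5089 and 5602 CPM in MEFs and to 389 to 765 CPM in 2NG- cells, with 9 of 10 called lower, pluripotency markers to 4.87 and 11.5 CPM and 2252 to 3417 CPM, with 8 of 8 higher, and macrophage markers (5 genes) to 14.6 and 17.1 CPM and 150.4 to 1504 CPM, with 3 higher. In OKMS, fibroblast markers summed to 3170 and 4141 CPM in MEFs and to 83.2 to 259 CPM in 2NG- cells, with 9 of 10 lower, pluripotency markers to 3.89 and 7.98 CPM and 720 to 2979 CPM, with 8 of 8 higher, and macrophage markers to 107 and 120.1 CPM and 125 to 288 CPM, with none called. All 6 epithelial markers were higher in both. The part of these markers in the results was not tested. In bulk RNA, fewer cells of a type and less RNA per cell cannot be told apart, here or in any comparison below.

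Dpy30 and Wdr5 were already within their ESC range in 2NG- cells of both routes. Dpy30 stood at 411, 491 and 564 CPM in MKOS 2NG- cells and at 366, 450 and 389 CPM in OKMS 2NG- cells, against at most 113 CPM in the MEFs, with log2 changes of 2.21 (SE 0.28, FDR = 1.19e-07) and 2.14 (SE 0.28, FDR = 1.86e-07). Wdr5 stood at 42.5, 54.2 and 76.0 CPM and at 62.2, 57.1 and 46.5 CPM, against at most 21.8 CPM in the MEFs, with log2 changes of 1.64 (SE 0.30) and 1.87 (SE 0.31). Neither gene overlapped with its MEF libraries in either route. Rbbp5 changed by 1.65 in OKMS (SE 0.38, FDR = 0.000881), a call lost without replicate 2 of the OKMS MEFs (log2 1.28, FDR = 0.0650). In MKOS its change of 0.75 (SE 0.36) did not pass (FDR = 0.113).

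Ash2l and Zfp57 lay higher in every MKOS than in every OKMS 2NG- library. Ash2l stood at 119, 120 and 151 CPM in MKOS 2NG- cells, against 21.1 and 25.9 CPM in MKOS MEFs, a log2 change of 2.44 (SE 0.36, FDR = 1.46e-06). In OKMS 2NG- cells it stood at 24.5, 39.0 and 77.8 CPM, which overlapped with the 20.2 and 30.7 CPM of OKMS MEFs. The fitted change of 1.05 there (SE 0.34, FDR = 0.0164) became 0.37 (FDR = 0.400) without replicate 3 of the 2NG- cells, the library with the high pluripotency marker sum, and the call was also lost without replicate 1 of the OKMS MEFs (0.87, FDR = 0.154) or replicate 2 (1.21, FDR = 0.0541). Zfp57 stood at 60.4, 67.5 and 94.8 CPM in MKOS 2NG- cells, against 24.1 and 19.7 CPM in the MEFs, a log2 change of 1.70 (SE 0.34, FDR = 0.000143). In OKMS it stood at 23.2, 27.1 and 22.4 CPM against 17.1 and 19.6 CPM, a log2 change of 0.51 (SE 0.33, FDR = 0.252), and 0.52 without replicate 3 of the 2NG- cells. Ash2l and Zfp57 were thus well above their MEF levels in each MKOS 2NG- library and near them in most OKMS libraries.

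Among the other H3K9 genes Setdb1 stood at 34.0, 45.3 and 43.0 CPM in MKOS 2NG- cells (log2 change 0.84, SE 0.29, FDR = 0.0297) and at 26.6, 35.1 and 31.9 CPM in OKMS 2NG- cells (1.33, SE 0.30, FDR = 0.000816). The MKOS call was lost without MKOS 2NG- replicate 2 or 3 or either MKOS MEF library (0.69 to 0.96, highest FDR = 0.221), and the OKMS call was lost without OKMS MEFs replicate 2 (1.05, FDR = 0.0571). Suv39h2 changed by 3.10 in OKMS (SE 0.72, FDR = 0.000897), from 0.557 and 2.29 CPM to 15.9, 9.35 and 9.67 CPM, where the lower MEF value is 3 reads and the fold is imprecise. In MKOS it changed by 0.41 (SE 0.63, FDR = 0.674). The difference between the changes of the routes was not tested for any member. Trim28 changed by 0.73 in OKMS (SE 0.25, FDR = 0.0231), which became 0.46 (FDR = 0.184) without OKMS 2NG- replicate 3 and was also lost without OKMS MEFs replicate 1 (0.63, FDR = 0.165) or replicate 2 (0.79, FDR = 0.0845). In MKOS its change was 0.47 (SE 0.25, FDR = 0.154). Ehmt1 and Ehmt2 were not called in either route, and the log2 changes of Ehmt2 were negative in both, -0.76 in MKOS (FDR = 0.0702) and -0.47 in OKMS. Of the 46 other pathway genes tested, 4 were higher and 3 lower in MKOS, where 15% of all genes were higher and 12% lower (Uhrf1 1.504, Mphosph8 1.51, Kdm4c 1.03 and Zfp809 1.07, against Phf21a -2.32, Jmjd1c -1.11 and Kdm4a -1.29), and 8 were higher and 1 lower in OKMS, where 15.7% were higher and 13.5% lower (led by Uhrf1 1.93, Mphosph8 1.12, Cbx1 1.37 and Kdm4c 1.35, against Phf21a -1.75). These counts are near or under the shares over all genes. Kdm4a, Kdm4c and Jmjd1c belong to families of H3K9 demethylases, Zfp809 encodes a zinc finger protein that recruits TRIM28 to retroviruses, and the PHF21A protein is a partner of the H3K4 demethylase KDM1A.

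**Figure D2:**
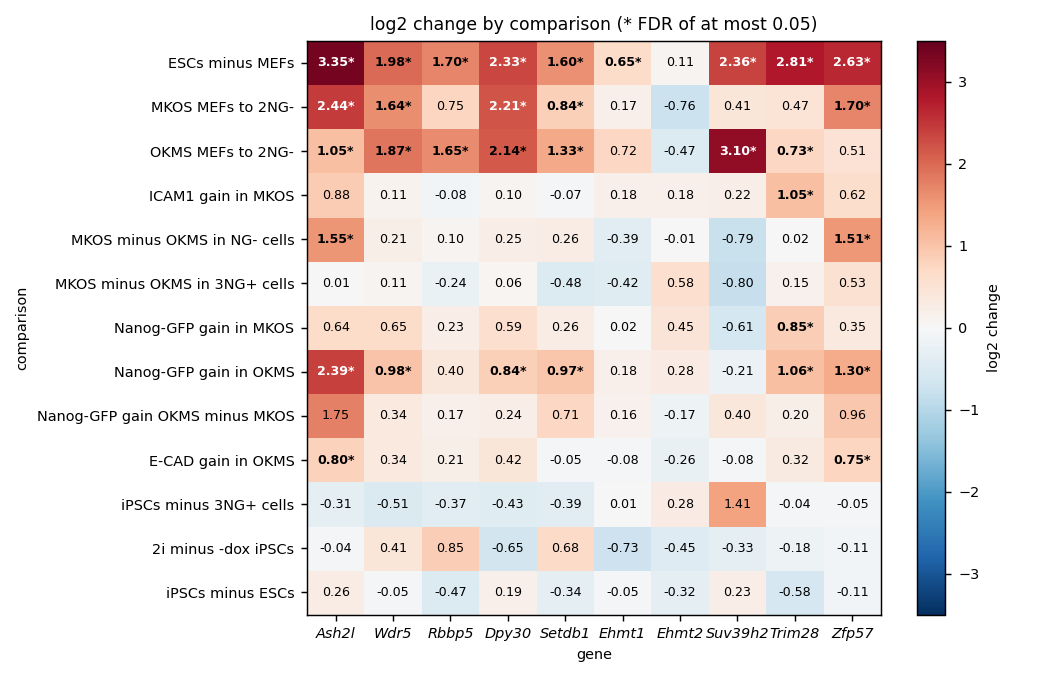
Fitted log2 change of each gene (columns) in the 13 comparisons (lines), with color from blue (lower in the first-named or later population) to red (higher); an asterisk marks an FDR of at most 0.05. All marked changes are positive, 9 of 10 genes are marked in ESCs against MEFs, and Ash2l and Zfp57 alone are marked where MKOS is compared with OKMS.

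The cassettes were then compared directly in Nanog-GFP- E-CAD+ cells, as the average of the 2NG- and 3NG- gates. Ash2l and Zfp57 were higher in MKOS and no member was lower, 2 of 10 against 6.69% of all genes tested called higher, and the median log2 difference was 0.15 over the members and 0.02 over all genes. Both genes are on a list of genes with delayed upregulation in OKMS that the study drew from these same samples, so that their direction is no independent evidence. Ash2l ranged from 119 to 330 CPM in the 6 MKOS libraries, with a median of 180 CPM, and from 24.5 to 99.3 CPM in the 6 OKMS libraries, with a median of 52.7 CPM, so that the cassettes did not overlap. The log2 difference was 1.55 (SE 0.21, FDR = 1.01e-06). Zfp57 ranged from 60.4 to 139 CPM in MKOS, with a median of 98.0 CPM, and from 22.4 to 61.9 CPM in OKMS, with a median of 26.4 CPM, so that 1 OKMS library reached into the MKOS range. Its log2 difference was 1.51 (SE 0.20, FDR = 1.24e-06).

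Both calls held within each gate and without any single library. In 2NG- cells the log2 differences were 1.33 for Ash2l (SE 0.29, FDR = 0.00345) and 1.53 for Zfp57 (SE 0.29, FDR = 0.000729), where 2.84% of all genes were called higher. In 3NG- cells they were 1.77 (SE 0.29, FDR = 0.000312) and 1.49 (SE 0.29, FDR = 0.00175), where 1.38% were. Over the 12 fits that each left out a library, Ash2l lay between 1.39 and 1.88 and Zfp57 between 1.40 and 1.77. Without replicate 3 of the OKMS 2NG- cells the differences in 2NG- cells were 2.00 for Ash2l (FDR = 2.63e-05) and 1.52 for Zfp57 (FDR = 0.00557). Without replicate 3 of the OKMS 3NG- cells those in 3NG- cells were 2.17 (FDR = 7.89e-05) and 2.00 (FDR = 8.71e-05).

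None of the other 8 members passed in this comparison. Dpy30 differed by 0.25 (SE 0.16), Wdr5 by 0.21 (SE 0.18), Rbbp5 by 0.10 (SE 0.22), Setdb1 by 0.26 (SE 0.18) and Trim28 by 0.02 (SE 0.15) on the log2 scale, and Ehmt1 by -0.39 (SE 0.18), Ehmt2 by -0.01 (SE 0.21) and Suv39h2 by -0.79 (SE 0.39). Within the core, then, Ash2l was called between cassettes while its partners Wdr5, Rbbp5 and Dpy30 were not, and within the recruiters Zfp57 was called and Trim28 was not. The difference between those genes was not itself tested. Among the 46 other pathway genes tested Zfp809 was higher in MKOS (log2 0.94) and Cbx1 lower (-0.64), where 5.2% of all genes were lower.

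Cell type markers moved with these calls. Pluripotency markers summed to 2252 to 9493 CPM in the 6 MKOS libraries and to 720 to 5120 CPM in the 6 OKMS libraries, and 5 of the 8 were called higher in MKOS. Fibroblast markers summed to 389 to 939 CPM in MKOS and to 83.2 to 294 CPM in OKMS, with 4 of 10 higher in MKOS, and macrophage markers to 148 to 1798 CPM and 21.0 to 358 CPM, with 2 higher. Esrrb, Zfp42, Tcl1, Dppa5a and Fgf4 were the pluripotency markers called higher, and Nanog differed by -0.04 on the log2 scale (SE 0.32) and was not called. The part of these marker differences in the result was not tested. OKMS 3NG- replicate 3, which stood apart from its group, had a pluripotency sum of 5120 CPM and Ash2l at 99.3 CPM, and the MKOS 2NG- libraries had sums of 2252, 2472 and 3417 CPM and Ash2l at 119, 120 and 151 CPM. For Zfp57 that library had 61.9 CPM, within the MKOS 2NG- range of 60.4 to 94.8 CPM.

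**Figure D3:**
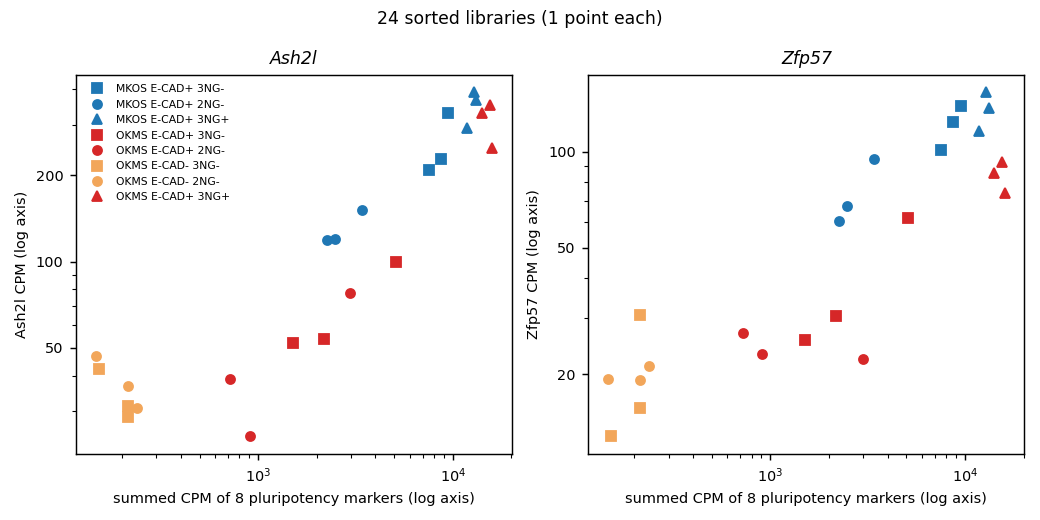
Level of Ash2l (left) and Zfp57 (right) in CPM against the summed CPM of 8 pluripotency markers, both on log axes, for the 24 sorted libraries (1 point each; circles 2NG-, squares 3NG-, triangles 3NG+; blue MKOS E-CAD+, red OKMS E-CAD+, orange OKMS E-CAD-). Levels are high where the marker sum is high. For Ash2l the blue Nanog-GFP- points, at 119 CPM or more, lie above the red Nanog-GFP- points, at 99.3 CPM or less. For Zfp57 they overlap, with blue from 60.4 CPM and red up to 61.9 CPM.

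Gain of ICAM1 within MKOS was read from 3NG- against 2NG- cells. Trim28 was called higher and no other member was called, 1 of 10 against 0.352% of all genes called higher, with a median log2 change of 0.18 over the members. Its levels were 277, 364 and 467 CPM in 3NG- cells and 152, 176 and 176 CPM in 2NG- cells, without overlap, a log2 change of 1.05 (SE 0.22, FDR = 0.0132). The call was lost without any 1 of the 3 MKOS 2NG- libraries (0.99, 1.07 and 1.08, FDR = 0.118, 0.0850 and 0.0501) or without 3NG- replicate 3 (0.89, FDR = 0.154). Ash2l and Zfp57 also did not overlap between these gates, with 209, 227 and 330 CPM against 119, 120 and 151 CPM for Ash2l (log2 0.88, SE 0.29, FDR = 0.283) and 101, 124 and 139 CPM against 60.4, 67.5 and 94.8 CPM for Zfp57 (0.62, SE 0.28, FDR = 0.638). Same-numbered libraries of these gates deviated together, and with the replicate number as a block within each cassette Trim28 remained the member called (1.03, SE 0.20, FDR = 0.00235). Ash2l then changed by 0.87 (SE 0.23, FDR = 0.0600), and calls over all genes rose from 61 to 105. Pluripotency markers summed to 2252 to 3417 CPM in 2NG- cells and to 7542 to 9493 CPM in 3NG- cells, without overlap, and Dppa5a alone of the 8 was called higher (1.74). Their part in the result was not tested.

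Gain of Nanog-GFP was read from 3NG+ against 3NG- cells. As in every comparison called a gain or a step here, these are separately sorted populations. The libraries follow no cells from one population to the other. The study holds that most OKMS 3NG- cells were trapped. It leaves unclear whether the few OKMS 3NG+ cells came from that state or took a course like that in MKOS. In MKOS, Trim28 alone was called higher, 1 of 10 against 0.557% of all genes, and the median log2 change was 0.40. In OKMS, 6 of 10 were called higher (Ash2l, Wdr5, Dpy30, Setdb1, Trim28 and Zfp57) and none lower, against 3.06% of all genes, and the median was 0.90. Over all genes the medians were -0.04 and -0.06.

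The largest change in OKMS was that of Ash2l, which stood at 53.5, 51.9 and 99.3 CPM in 3NG- cells and at 352, 249 and 331 CPM in 3NG+ cells, a log2 change of 2.39 (SE 0.30, FDR = 1.50e-06) or 5.26-fold, and of 2.80 without 3NG- replicate 3. In MKOS 3NG- cells it stood at 209, 227 and 330 CPM. In MKOS 3NG+ cells it stood at 292, 365 and 391 CPM, which overlapped (0.64, SE 0.28, FDR = 0.257). The difference between these changes was 1.75 (SE 0.41) and was not called (FDR = 0.129). Leaving out OKMS 3NG- replicate 3 gave 2.16 (FDR = 0.0125), a call, as did several other settings. Zfp57 stood at 30.6, 25.7 and 61.9 CPM in OKMS 3NG- cells and at 92.8, 74.1 and 85.4 CPM in 3NG+ cells (1.30, SE 0.29, FDR = 0.00395; 1.82 without 3NG- replicate 3), against 101, 124 and 139 CPM and 116, 137 and 154 CPM in MKOS (0.35, SE 0.28, FDR = 0.582). Its difference between cassettes was 0.96 (SE 0.40, FDR = 0.558), and 1.47 (FDR = 0.145) without that library. No member was called for a difference of the step between cassettes by edgeR, 0 of 10 against 0.0256% of all genes in either direction, with 2 members at an unadjusted p below 0.05. DESeq2, which called 20 genes in all, called 1 member (Ash2l).

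Trim28 was higher in 3NG+ than in 3NG- cells of both cassettes. In MKOS it stood at 277, 364 and 467 CPM in 3NG- cells and at 593, 530 and 643 CPM in 3NG+ cells (0.85, SE 0.22, FDR = 0.0300). In OKMS it stood at 223, 200 and 367 CPM and at 485, 460 and 487 CPM (1.06, SE 0.22, FDR = 0.00205). The populations did not overlap in either cassette. The MKOS call was lost without 3NG- replicate 1 (0.71, FDR = 0.216) or 2 (0.87, FDR = 0.0953) or 3NG+ replicate 2 (0.90, FDR = 0.0861) or 3 (0.77, FDR = 0.113). In OKMS 3NG- and 3NG+ cells, Wdr5 stood at 43.3, 38.6 and 51.3 CPM and at 82.9, 81.8 and 64.95 CPM (0.98, SE 0.26, FDR = 0.0148). Dpy30 stood at 375, 378 and 488 CPM and at 578, 699 and 659 CPM (0.84, SE 0.23, FDR = 0.0236). Setdb1 stood at 37.8, 25.7 and 32.7 CPM and at 58.1, 58.1 and 48.2 CPM (0.97, SE 0.26, FDR = 0.0169). The ranges of the 6 genes called in OKMS did not overlap between 3NG- and 3NG+ cells. These genes were picked by the test on the same libraries, so that this is no separate support. The share over all genes was not counted. Ash2l and Trim28 kept their calls without any single library, but without OKMS 3NG- replicate 1 or replicate 2 the members called numbered 3 and 2, with Wdr5, Dpy30 and Zfp57 (0.94, 0.74 and 1.12) lost without replicate 1 and Wdr5, Dpy30, Setdb1 and Zfp57 (0.90, 0.78, 0.84 and 1.08) lost without replicate 2. The others in this family were Wdr5 and Setdb1 without 3NG+ replicate 1 (0.90 and 0.90) and Dpy30 without 3NG+ replicate 2 or 3 (0.81 and 0.80).

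Pluripotency markers summed to 1510 to 5120 CPM in OKMS 3NG- and 14161 to 15967 CPM in 3NG+ cells, with 6 of 8 called higher. In MKOS they summed to 7542 to 9493 CPM and 11788 to 13225 CPM, with 0 of 8 called. Of the 6 epithelial markers, 2 were called lower in each cassette. The part of these markers in the result was not tested. Other pathway genes called in OKMS were Kdm5b (1.89), Fam208a (listed as D14Abb1e, 1.74), Zfp809 (1.46) and Uhrf1 (0.72) among the 5 higher, and Suv39h1 (-1.98) and the H3K9 demethylase Kdm7a (listed as Jhdm1d, -2.33) as the 2 lower, where 3.21% of all genes were lower. In MKOS Uhrf1 was higher (0.72) and Suv39h1 lower (-1.91), where 1.02% of all genes were lower. Suv39h1 was thus lower in 3NG+ than in 3NG- cells of both cassettes. Suv39h2 changed by -0.21 in OKMS (FDR = 0.888) and by -0.61 in MKOS (FDR = 0.647).

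In 3NG+ cells no member was called between cassettes by edgeR (0 of 10 against 0.685% of all genes in either direction), none had an unadjusted p below 0.05, and DESeq2 called none. Ash2l stood at 292, 365 and 391 CPM in MKOS and 352, 249 and 331 CPM in OKMS, a log2 difference of 0.01 (SE 0.28). Zfp57 stood at 116, 137 and 154 CPM in MKOS and at 92.8, 74.1 and 85.4 CPM in OKMS, without overlap, a difference of 0.53 (SE 0.28, FDR = 0.435) that did not pass. Trim28 did not overlap either, with 530 to 643 CPM against 460 to 487 CPM (0.15, SE 0.22).

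**Figure D4:**
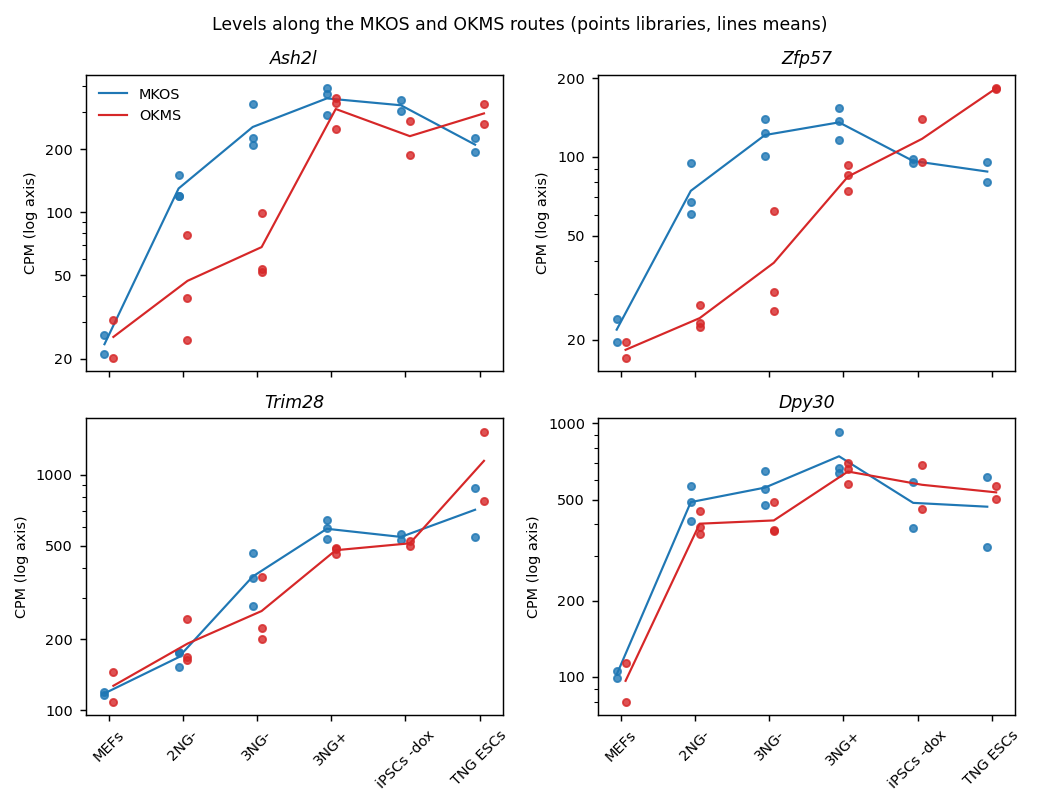
Levels of Ash2l, Zfp57, Trim28 and Dpy30 in CPM (vertical log axes) along MEFs, E-CAD+ 2NG-, 3NG- and 3NG+ cells, iPSCs -dox and TNG ESCs with the same cassette (horizontal axis), for MKOS (blue) and OKMS (red); points are libraries and lines join the means. Dpy30 was higher in 2NG- cells than in MEFs in both routes. Ash2l in OKMS was at most 99.3 CPM in Nanog-GFP- cells and at least 249 CPM in 3NG+ cells.

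Gain of E-cadherin was read in OKMS Nanog-GFP- cells, E-CAD+ against E-CAD-. Ash2l and Zfp57 were called higher and none lower, 2 of 10 against 4.69% of all genes called higher, and the median log2 change was 0.27. Ash2l ranged from 24.5 to 99.3 CPM in the 6 E-CAD+ libraries (median 52.7 CPM) and from 28.6 to 47.0 CPM in the 6 E-CAD- libraries (median 34.0 CPM), a log2 change of 0.80 (SE 0.21, FDR = 0.0115). Zfp57 ranged from 22.4 to 61.9 CPM (median 26.4 CPM) and from 12.8 to 30.7 CPM (median 19.3 CPM), a change of 0.75 (SE 0.21, FDR = 0.0195). Both overlapped. The Ash2l call was lost without either of the replicates 3 with a high marker sum, and the Zfp57 call was lost without 1 of them and without either of 2 E-CAD- libraries. Without OKMS E-CAD+ 3NG- replicate 3, Ash2l changed by 0.60 (FDR = 0.0811) and Zfp57 by 0.49 (FDR = 0.150), without E-CAD+ 2NG- replicate 3 Ash2l changed by 0.46 (FDR = 0.146), where Zfp57 kept its call (0.75, FDR = 0.0308), and without E-CAD- 3NG- replicate 2 or 3 Zfp57 changed by 0.67 (FDR = 0.0603) or 0.62 (FDR = 0.0790). Pluripotency markers summed to 720 to 5120 CPM in E-CAD+ and 147 to 238 CPM in E-CAD- cells, with 8 of 8 higher in E-CAD+, and fibroblast markers to 83.2 to 294 CPM and 541 to 947 CPM, with 7 of 10 lower. Their part in the result was not tested. Kdm5b was the only other pathway gene called (0.77).

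Past the 3NG+ stage edgeR called no member, which does not show that levels were equal. Between iPSCs -dox and 3NG+ cells edgeR called none (0 of 10 against 3.29% of all genes in either direction), with 3 at an unadjusted p below 0.05. DESeq2, which called 751 genes in all, called 1 member. That gene was Suv39h2, which stood at 13.2 and 16.3 CPM in MKOS and 11.8 and 13 CPM in OKMS iPSCs, above the 2.77 to 7.69 CPM of all 6 3NG+ libraries (log2 1.41, SE 0.43, FDR = 0.0595). Between iPSCs in 2i and -dox edgeR called none (0 of 10 against 4.34%), with 4 at an unadjusted p below 0.05. DESeq2, which called 986 genes in all, called 4 members. These were Rbbp5 (0.85, SE 0.27, FDR = 0.0607 in edgeR), Setdb1 (0.68, SE 0.22, FDR = 0.0713), Dpy30 (-0.65, SE 0.20, FDR = 0.0568) and Ehmt1 (-0.73, SE 0.23, FDR = 0.0540). Setdb1 alone of them did not overlap, with 50.4, 77.2, 68.2 and 64.5 CPM in 2i and 44.5, 38.3, 26.4 and 44.0 CPM without doxycycline. The H3K9 demethylase gene Jmjd1c (-1.51) and Zfp644 (-1.38), whose product binds the EHMT enzymes, were called lower in 2i. Between iPSCs -dox and ESCs of the same cassettes edgeR called none (0 of 10 against 1.4%), with 1 at an unadjusted p below 0.05, and DESeq2 called none. That gene was Trim28 (-0.58, SE 0.19, FDR = 0.114), for which TNG OKMS ESCs replicate 1, at 1518 CPM, lay far above the 499 to 874 CPM of the other libraries. Trim28 differed by -0.39 (FDR = 0.560) without that library and by -0.72 (FDR = 0.0488), a call, without replicate 2 of the same ESCs.

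Over all 20 conditions the means of Ash2l ran from 20.4 ± 5.67 CPM (SD, n = 2) in WT MEFs to 349 ± 51.7 CPM (n = 3) in MKOS 3NG+ cells, and the order was MEFs, OKMS E-CAD- cells (34.0 ± 7.22 and 38.2 ± 8.12 CPM), OKMS E-CAD+ 2NG- (47.1 ± 27.5 CPM) and 3NG- cells (68.3 ± 26.9 CPM), MKOS 2NG- cells (129.9 ± 18.1 CPM) and then all other conditions from 210.2 CPM upward. Neighbors in this order overlapped except at 3 places, namely MKOS 2NG- cells against OKMS 3NG- cells below and TNG MKOS ESCs above, and TNG ESCs (282 and 286 CPM) against OKMS iPSCs in 2i (248 and 279 CPM). Zfp57 ran from 13.1 ± 0.118 CPM in WT MEFs to 183 ± 0.584 CPM in TNG OKMS ESCs. Its lowest conditions were the MEFs, the OKMS E-CAD- cells and the OKMS E-CAD+ 2NG- cells, all with means of at most 24.2 CPM, followed by OKMS 3NG- (39.4 ± 19.6 CPM), MKOS 2NG- (74.2 ± 18.2 CPM) and OKMS 3NG+ cells (84.1 ± 9.40 CPM). The range of mean log2 CPM over conditions was 4.04 for Ash2l, 3.71 for Zfp57, 3.19 for Trim28, 2.93 for Dpy30, 2.91 for Suv39h2, 2.88 for Wdr5, 2.48 for Rbbp5, 2.24 for Setdb1, 2.15 for Ehmt2 and 1.39 for Ehmt1. D6 iPSCs had the lowest means of both Ehmt1 (20.3 ± 3.34 CPM) and Ehmt2 (12.8 ± 0.913 CPM), and TNG MKOS ESCs had the highest of Ehmt2 (60.3 ± 1.24 CPM).

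Across the condition means of log2 CPM, Pearson's r between Ash2l and Zfp57 was 0.97 over the 20 conditions, that between Ash2l and Trim28 0.91 and that between Ash2l and its partner Wdr5 0.86. For Ehmt1 and Ehmt2 it was 0.26, and for Ehmt1 and Ash2l 0.06. These values are descriptions, since the conditions share cell types and cassettes and most of their spread lies between MEFs and pluripotent cells. Among 9604 genes with a mean of at least 5 CPM, those most like Ash2l were H2-M5 (0.99), Gm2381 (0.98) and 2610305D13Rik (0.98), and those most like Zfp57 were Gm2381 (0.97), the early embryonic gene Dppa2 (0.97) and Ash2l itself. Among those most like Trim28 were Asna1 (0.97) and Gm13051 (0.97), and those most like Dpy30 were Polr2e (0.98), Apitd1 (0.97) and Ppil1 (0.97).

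IAP elements are endogenous retroviruses that the TRIM28 and SETDB1 pathway is known to silence, and their reads are given as a description, as reads per 1000000 reads (RPM) on transcripts and repeats and summed over 25 repeat types. They stood at 2989, 3523 and 4726 RPM in OKMS E-CAD+ 2NG- cells and at 1910, 1727 and 2137 in OKMS E-CAD+ 3NG- cells. In MKOS they stood at 798, 857 and 1807 in 2NG- cells and at 774, 826 and 1560 in 3NG- cells. In 3NG+ cells they stood at 1300, 1320 and 1839 in OKMS and at 357, 735 and 667 in MKOS. In OKMS E-CAD- cells they stood at 1513, 1621 and 2601 at 2NG- and at 899, 899 and 1587 at 3NG-, where Zfp57 was at 12.8 to 30.7 CPM. MEFs had 189 to 445, ESCs 249.6 to 429 and iPSCs in 2i 534 to 902 RPM. The OKMS E-CAD+ 2NG- libraries were thus higher than all libraries of the other conditions. In them Trim28 was at 168, 164 and 243 CPM, against 152 to 176 CPM in MKOS 2NG- cells. Setdb1 was at 26.6 to 35.1 CPM against 34.0 to 45.3 CPM, and Zfp57 at 22.4 to 27.1 CPM against 60.4 to 94.8 CPM. The part of these genes in the IAP levels was not tested. Another retroviral repeat, MT2_Mm, the MERVL promoter that marks cells resembling the early embryo, followed another order. It had its highest means in OKMS iPSCs -dox (208 and 1987 RPM), MKOS iPSCs -dox (458 and 926) and TNG OKMS ESCs (537 and 614), and stood at 12.2 and 14.8 in TNG MKOS ESCs. MERVL-int ranged from 2.65 ± 1.19 (n = 3) in OKMS E-CAD+ 2NG- cells to 59.1 ± 49.6 (n = 2) in OKMS iPSCs -dox. No test was made on repeats.

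**Figure D5:**
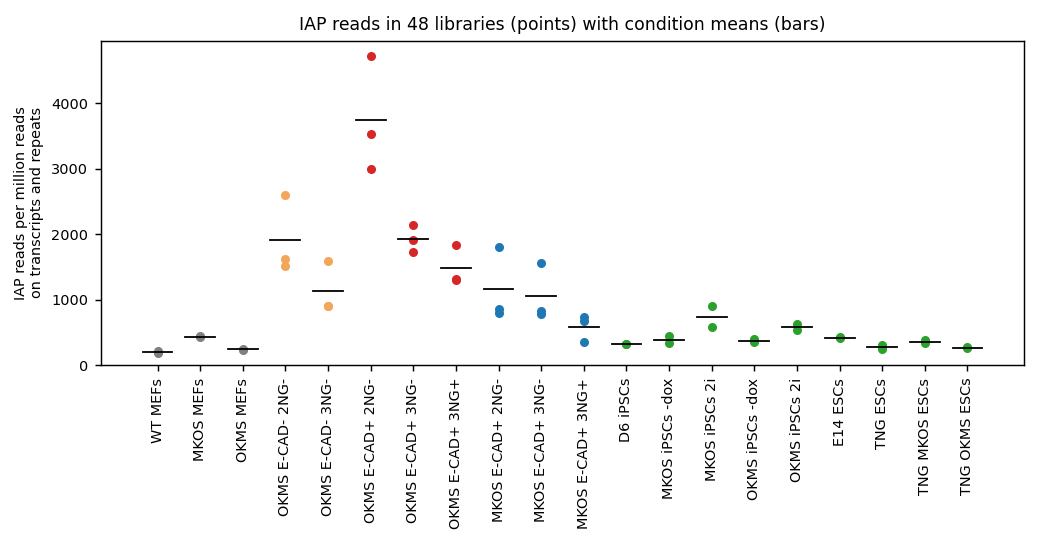
IAP level in RPM over transcripts and repeats (vertical axis, from 0) in the 48 libraries (points) of the 20 conditions (horizontal axis), with the mean of each condition as a bar. OKMS E-CAD+ 2NG- cells are highest, at 2989 to 4726, and MEFs, iPSCs -dox and ESCs are all below 450.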

How the data were processed

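The authors deposited raw read counts per transcript, made with the STRT pipeline and without normalization; the labels name Bowtie 0.12.7 and mm10, the study's methods another build, and gene positions in the table match GRCm38 (mm10). The deposited counts include reads with several positions. All 48 columns were matched to labelled samples, and every value here was computed from the counts. Levels are CPM over transcripts. Counts were tested with edgeR 4.0.16 in R 4.3.3 (TMM, filterByExpr by condition, quasi-likelihood fit with 1 coefficient for each of the 20 conditions, Benjamini-Hochberg adjustment over 15630 genes, threshold 0.05). SE is the log2 change divided by the square root of F. Scripts were tested on data simulated with 1 dispersion for all genes. There 6.86% of 2-fold and 76.5% of 4-fold changes were called for the cassettes in Nanog-GFP- cells. For the Nanog-GFP step in OKMS these shares were 1.11% and 13.6%, and for ESCs against MEFs 1.01% and 47.5%. The simulation had far fewer changed genes than were called in the data, and its single dispersion is not that of each member. Its shares are therefore not the power for the members. In the data Wdr5, Setdb1 and Dpy30 were called at 1.98-, 1.96- and 1.79-fold for the Nanog-GFP step in OKMS. A member that was not called may still differ. Alternatives were DESeq2 1.42.0 (Wald test), edgeR with the size factors of DESeq2, all genes with at least 1 read, the compared libraries only, a replicate block, leaving out 7 libraries that the study left out of its averages, and leaving out each library; the single gates and a replicate block within each cassette were added after seeing the data. Replicate numbers were taken to pair libraries only for the ICAM1 step, where every pair's deviations from the group means correlated above 0.1 (0.39, 0.22 and 0.51). Fits without a library reuse the genes and dispersions of the full fit. Depth was 1429717 to 14174725 reads per library, with a median of 6243254. All members are named. Of the other pathway genes those past the threshold are named, at most the 4 with the smallest p in each direction, and for the 4 members with the widest range the 3 genes most like them, of which 1 is not reported here. Members and lists were chosen with earlier results of these data known, and Ash2l and Zfp57 are on the study's own list of delayed genes. Figures used Matplotlib 3.10.9 under Python 3.11.15, and tables used pandas 2.3.3 and NumPy 2.4.6.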

Additional observations from a re-analysis of the deposited data

How the results depend on the processing

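No called member reversed its direction under any alternative run, and the calls of Ash2l and Zfp57 between cassettes in Nanog-GFP- cells held under all of them. The number of members called in ESCs against MEFs, MEFs to 2NG- in MKOS, and MKOS against OKMS in Nanog-GFP- and in 3NG+ cells stayed within 1.5 times its value. For the ICAM1 step (1 member) it was 2 without the filter on low counts (Ash2l added) and 0 without the 7 libraries that the study left out of its averages. Without those 7 libraries it was 2 for the Nanog-GFP step in MKOS (1; Ash2l added, 0.86), 1 for the difference of that step between cassettes (0), 0 for the E-cadherin step (2; Ash2l 0.39 and Zfp57 0.33), 1 for iPSCs in 2i against -dox (0) and 1 for iPSCs against ESCs (0; Trim28). For the difference of the Nanog-GFP step it was also 1 (Ash2l) with DESeq2, without the filter and with the replicate block. For the E-cadherin step it was 0 with the compared libraries only. For iPSCs against 3NG+ cells (0) it was 1 with DESeq2 and 1 without the filter (Suv39h2). For iPSCs in 2i against -dox it was 4 with DESeq2, 1 with its size factors, 1 without the filter and 3 with the replicate block. Leaving out single libraries gave 3 to 7 members for MEFs to 2NG- in OKMS, 0 to 1 for the ICAM1 step, 0 to 1 for the Nanog-GFP step in MKOS, 2 to 6 for it in OKMS, 0 to 1 for its difference, 0 to 2 for the E-cadherin step, 0 to 3 for 2i and 0 to 1 for iPSCs against ESCs. The cause of these changes was not tested. Same-numbered sorted libraries deviated together (r above 0.1) in 44 of 84 pairs over all populations. With the block, Ash2l and Trim28 lost their calls for MEFs to 2NG- in OKMS (0.75 and 0.53). Unsorted libraries were all coded as replicate 1 in that setting. These values thus refer to 2NG- cells at the level of replicate 1 and are no adjustment for pairing. Calls over all genes rose with the block from 247 to 422 for the Nanog-GFP step in MKOS. With a replicate block within each cassette, added after seeing the data, the members called changed only for the difference of the Nanog-GFP step (1, Ash2l, 1.82), among the 5 comparisons it was run for, and calls over all genes moved by more than 1.5 times for the ICAM1 step (105), the Nanog-GFP step in MKOS (508) and its difference (11). Calls over all genes also moved by more than 1.5 times for the ICAM1 step (61; DESeq2 105, no filter 237, compared libraries 122), MKOS against OKMS in Nanog-GFP- cells (1858; without the 7 libraries 1208) and 3NG+ cells (107; DESeq2 271, no filter 484, without the 7 libraries 219), the Nanog-GFP step in MKOS (DESeq2 609, no filter 887, compared libraries 545, without the 7 libraries 559) and OKMS (979; DESeq2 1481, compared libraries 428) and its difference (4; DESeq2 20, no filter 163, compared libraries 11, without the 7 libraries 46), the E-cadherin step (1107; without the 7 libraries 634), iPSCs against 3NG+ cells (515; no filter 987), 2i (679; no filter 1025, compared libraries 357) and iPSCs against ESCs (219; DESeq2 503, no filter 564, without the 7 libraries 389). Depth limits Suv39h2 most, with as few as 3 reads in a library.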
